A study of Homo sapiens with 14 samples.

Results

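The MAPK pathway feedback genes described here are 10 genes chosen by symbol: the phosphatases DUSP4, DUSP5 and DUSP6, the Sprouty genes SPRY1, SPRY2 and SPRY4, the Sprouty-related genes SPRED1 and SPRED2, and the transcription factors ETV4 and ETV5. All 10 were found, each under a single identifier, among the 17810 genes counted in cells induced to make EGFP or OmoMYC and among the 19143 genes counted in parental cells given DMSO or dTAG47. RNA-seq was performed on CHP-134, an established human neuroblastoma line in which the gene for N-MYC is amplified. In the first experiment, CHP-134 cells carrying a lentiviral Tet-On construct for either EGFP, a fluorescent protein, or OmoMYC, a mutated MYC dimerization domain that competes with MYC proteins, were grown with 1 µg/ml doxycycline for 3 days (3 libraries each). In the second, parental CHP-134 cells were exposed for 18 h to 500 nM dTAG47, a compound that degrades proteins bearing an FKBP-derived tag, or to DMSO, its solvent (4 libraries each).

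The EGFP and OmoMYC cells were transduced separately and selected with G418, so the line and the transgene cannot be told apart, and both received doxycycline in medium with tetracycline-approved serum. The parental cells carry no tag for dTAG47 to act on and grew in ordinary serum, without doxycycline. OmoMYC against EGFP asks which genes respond when MYC proteins are inhibited, and dTAG47 against DMSO asks what the compound itself does where its target is absent. Libraries held 28060817 to 38358128 counts in the first experiment and 40861430 to 53451641 in the second. The labels were checked with the MYC locus, from which OmoMYC derives: MYC ran at 0.568 to 0.689 CPM (the count of a gene scaled to its library's total after TMM correction) with EGFP and at 513 to 527 CPM with OmoMYC, where reads of the transgene and of the native gene cannot be separated. The neuroblastoma markers GATA3 and HAND2 averaged 303 and 258 CPM in EGFP cells, whereas TH and DBH, enzymes of catecholamine synthesis, averaged 0.238 and 0.405 CPM. In bulk RNA of this kind, fewer cells expressing a gene and less of its RNA per cell cannot be told apart.

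Growth factor receptors signal through RAS, RAF, MEK and ERK, and active ERK turns on genes whose products shut the same pathway down. DUSP4, DUSP5 and DUSP6 remove phosphate groups from ERK, Sprouty proteins interfere between receptor and RAF, and SPRED proteins bring the RAS inhibitor neurofibromin to the membrane. ETV4 and ETV5 are ETS-family transcription factors whose RNA rises with ERK activity. Because of this wiring their RNA is often read as a gauge of pathway output, but the activity of ERK itself was not measured in these data.

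To show what lies ahead of these genes, upstream sequence was taken from RefSeq (GRCh38.p14), in which 6 of the 10 members had an entry, with 10 start sites in all. DUSP4, DUSP5, ETV4 and ETV5 are named only. The 250 bases before each start were searched on both strands for CGGAAG, a core of sites bound by ETS factors, for the E-box CACGTG, a motif of MYC proteins, for the AP-1 motif TGACTCA and for the CRE motif TGACGTCA. Of 35116 windows of the same length, 16.5% held the ETS core, 6.34% the E-box, 4.2% the AP-1 motif and 1.65% the CRE motif. The ETS core occurred once before the start of DUSP6 and once before the second start of SPRY1, and none of the 10 windows held the other 3 motifs. The windows of DUSP6, which was called higher with OmoMYC, and of the first start of SPRY1, which was called lower, are shown as examples. The second SPRY1 window, which holds the ETS core, is not printed. In GRCh37, all 250 bases of that window and of the DUSP6 window lie within annotated exons, of any gene on either strand. The DUSP6 window begins at 89746279, just past the annotated span of DUSP6, so those exons are not its own. Which gene the exons in the SPRY1 window belong to is not given here. Capitals mark the ETS core, read here as CTTCCG on the strand of the gene, which begins 62 bases upstream of the DUSP6 start.
DUSP6, chr12:89352502-89352751, minus strand: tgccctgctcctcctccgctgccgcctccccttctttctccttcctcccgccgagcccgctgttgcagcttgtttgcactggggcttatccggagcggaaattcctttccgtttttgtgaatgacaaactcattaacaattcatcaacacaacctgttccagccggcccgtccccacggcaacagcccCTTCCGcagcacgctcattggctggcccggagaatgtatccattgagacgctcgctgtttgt
SPRY1, chr4:123396545-123396794, plus strand: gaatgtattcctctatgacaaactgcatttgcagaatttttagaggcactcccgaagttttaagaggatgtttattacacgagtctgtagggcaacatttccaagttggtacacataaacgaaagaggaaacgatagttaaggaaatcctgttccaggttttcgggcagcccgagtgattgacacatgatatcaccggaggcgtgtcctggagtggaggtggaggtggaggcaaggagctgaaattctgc
Since SPRY1 has the core at its other start, the presence of these letters does not separate the genes. A match of letters does not show binding, and no binding was measured here.

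With OmoMYC, 6 of the 10 members were called by edgeR's quasi-likelihood test, at a Benjamini-Hochberg adjusted p (FDR) below 0.05: ETV5, SPRY4, DUSP6, DUSP4 and SPRED2 were higher and SPRY1 was lower. Across all 13803 tested genes 53% were called, 27.3% higher and 25.7% lower, so the share of members called, 60%, was close to that of all genes. At an unadjusted p below 0.05, 6 members passed, against 59.2% of all tested genes. SPRY4, and DUSP6 for the most part, passed the filter on low counts through their OmoMYC libraries. The median log2 fold change of the 10 members was 0.20, beside 0.01 for all genes tested. Sizes differed widely between members, from a log2 fold change of -0.44 in SPRY1 through 0.03 in ETV4 to 2.80 in ETV5. SPRY4 is given below as a ratio to the detection floor.

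**Figure D1:**
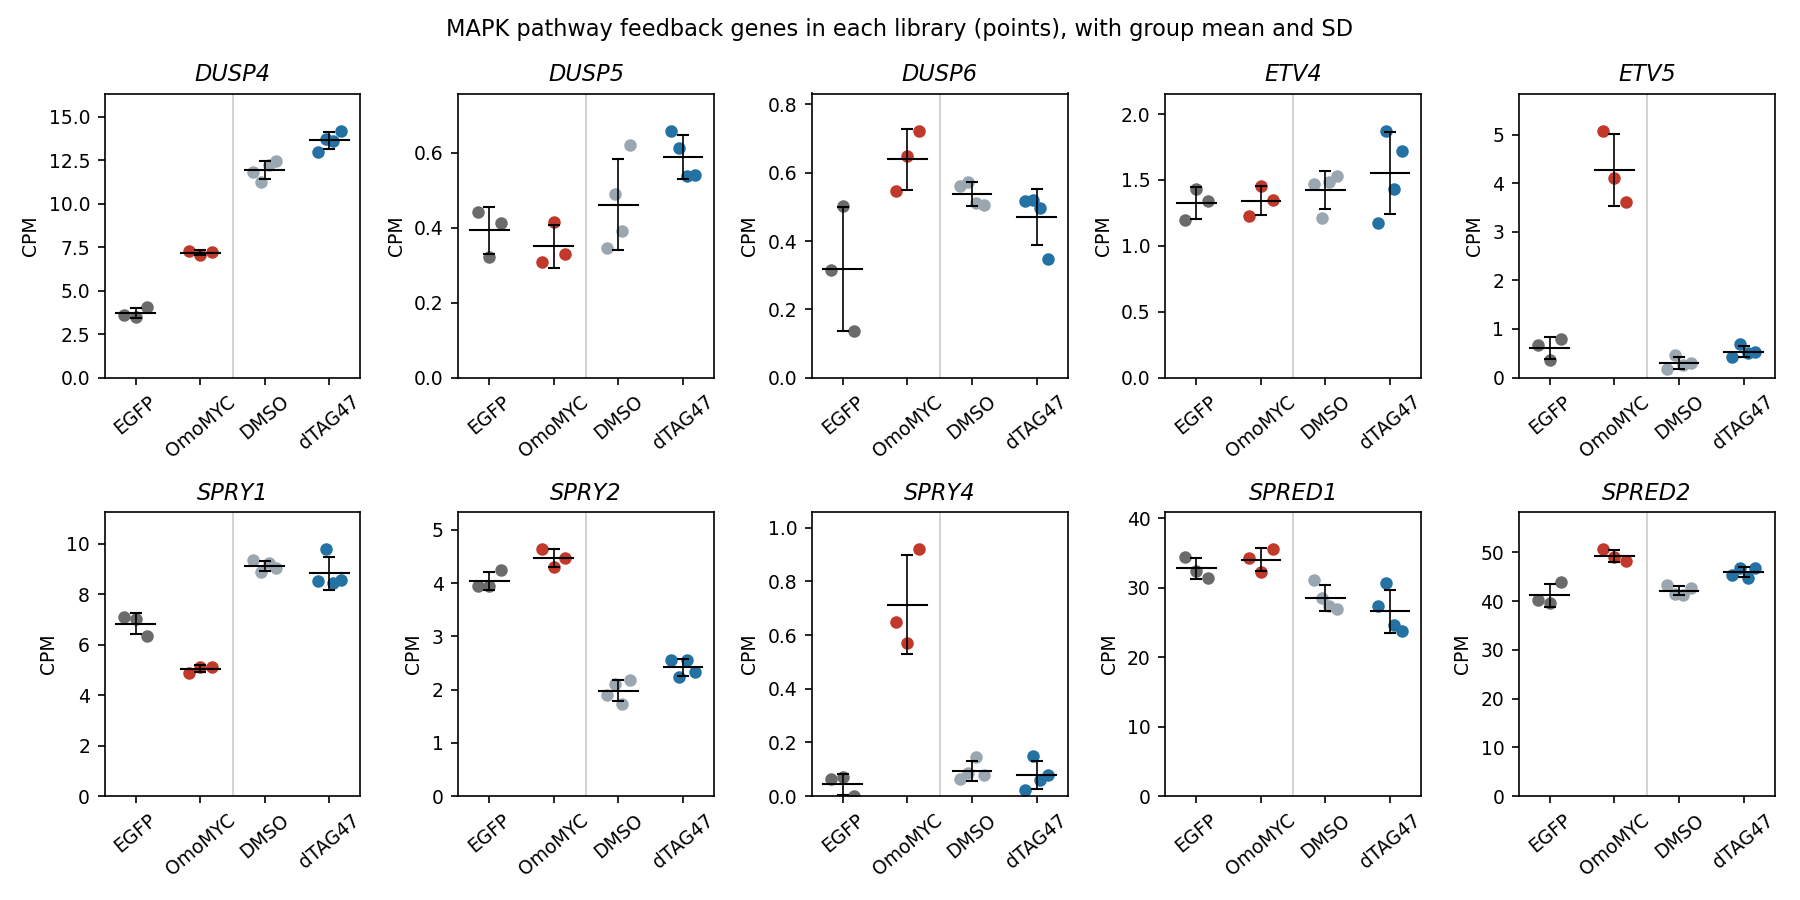
Expression of each of the 10 genes in CPM (vertical axes, from 0) in the 14 libraries: points are libraries, horizontal lines group means and bars the SD, with n = 3 for EGFP and OmoMYC and n = 4 for DMSO and dTAG47. ETV5, SPRY4, DUSP4, DUSP6, SPRY2 and SPRED2 lie higher in every OmoMYC library than in any EGFP library, and SPRY1 lies lower. The DMSO and dTAG47 libraries overlap for all genes but DUSP4, SPRY2 and SPRED2. Of all tested genes, 62.3% had groups that did not overlap with OmoMYC and 3.34% with dTAG47.

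ETV5, on chromosome 3 (185764103 to 185828107, minus strand, GRCh37), showed the largest change among members with counts above the detection floor in both groups. It was at 0.663, 0.358 and 0.792 CPM in the EGFP libraries and at 5.08, 4.10 and 3.62 CPM in the OmoMYC libraries. Every OmoMYC library was above every EGFP library, and the lowest of the former was over the highest of the latter by a wide margin. The log2 fold change was 2.80 ± 0.25 (SE, FDR = 1.09e-05), a 6.96-fold rise, and only 152 of the 13803 tested genes had a higher log2 fold change. ETV5 shares 164 exonic bases on the same strand with DGKG, which encodes a diacylglycerol kinase, in the GENCODE annotation used here for coordinates. DGKG, which was singled out after its values were seen, had 18 to 24 counts with EGFP and 132 to 149 with OmoMYC, a log2 fold change of 2.62 ± 0.18 (SE, FDR = 1.51e-06). How reads in the shared bases were counted is not given in the sources used here, and their part in the rise of either gene was not tested.

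ETV4, the paralog of ETV5 on chromosome 17 (41605212 to 41656988, minus strand), was at 1.20, 1.43 and 1.34 CPM with EGFP and at 1.23, 1.45 and 1.35 CPM with OmoMYC. The groups overlapped almost completely. Its log2 fold change of 0.03 had a 95% interval of -0.39 to 0.45 (FDR = 0.908), which does not reach the change of ETV5. ETV4 shares 68 exonic bases with DHX8 on the opposite strand, and DHX8 had 8002 to 10477 counts where ETV4 had 36 to 56. Whether strand was used in counting is not given in the sources used here, so some ETV4 counts may belong to DHX8.

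SPRY4, a Sprouty gene on chromosome 5 (141689992 to 141706020, minus strand), went from the detection floor to low but clear counts. The EGFP libraries held 2, 2 and 0 counts and the OmoMYC libraries 19, 22 and 28. All EGFP libraries were at or below the floor of 3 counts per library, and SPRY4 entered the test only through its OmoMYC libraries. The mean OmoMYC level was 7.01-fold the level of that floor in the EGFP libraries, and SPRY4 was called (FDR = 0.000307). This ratio is not an interval, and neither the counting error nor the spread of the OmoMYC libraries enters it.

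SPRY1 and SPRY2 did not follow SPRY4. SPRY1, on chromosome 4 (124317950 to 124324915, plus strand), was at 7.10, 7.02 and 6.34 CPM with EGFP and at 4.88, 5.11 and 5.13 CPM with OmoMYC. The groups did not overlap, and SPRY1 was the only member called lower, with a log2 fold change of -0.44 ± 0.11 (SE, FDR = 0.0074), or 1.35-fold. SPRY2, on chromosome 13 (80910111 to 80915261, minus strand), was at 3.94, 3.94 and 4.24 CPM with EGFP and at 4.64, 4.31 and 4.47 CPM with OmoMYC. The SPRY2 groups did not overlap either, but the gap was small and the gene was not called (log2 fold change 0.15, 95% interval -0.12 to 0.41, FDR = 0.328). In all, 7 of the 10 members had groups that did not overlap, against 62.3% of the tested genes.

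DUSP4, a nuclear phosphatase of ERK on chromosome 8 (29190581 to 29208201, minus strand), was at 3.60, 3.51 and 4.03 CPM with EGFP and at 7.30, 7.06 and 7.20 CPM with OmoMYC. The OmoMYC libraries clustered tightly above all EGFP libraries, and the log2 fold change was 0.95 ± 0.12 (SE, FDR = 9.11e-05), a 1.93-fold rise. DUSP6, the cytoplasmic ERK phosphatase on chromosome 12 (89741012 to 89746278, minus strand), had far fewer counts. These were 10, 14 and 4 counts in the EGFP libraries, or 0.315, 0.501 and 0.138 CPM, and 16, 25 and 22 counts in the OmoMYC libraries, or 0.546, 0.649 and 0.724 CPM. Its groups did not overlap, but the highest EGFP library came near the lowest OmoMYC library. The log2 fold change was 1.01 with a 95% interval from 0.15 to 1.87, and its FDR of 0.0493 lay just below the threshold. This call was lost when any library other than EGFP 2 was left out (FDR 0.0669 to 0.173), and without EGFP 3, its lowest library, the log2 fold change was 0.63. It was also lost with DESeq2 (FDR = 0.0906). DUSP6 shares 1105 exonic bases with a noncoding RNA gene on the opposite strand, which is not among the genes counted in either experiment. Whether strand was used in counting is not given in the sources used here, so some DUSP6 counts may belong to that gene.

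DUSP5, another nuclear phosphatase of ERK, on chromosome 10 (112257665 to 112271291, plus strand), was at 0.442, 0.322 and 0.413 CPM with EGFP and at 0.307, 0.415 and 0.329 CPM with OmoMYC. These values, from 9 to 16 counts per library, overlapped between the groups. A log2 fold change of -0.15 with a 95% interval of -0.88 to 0.58 (FDR = 0.73) means that a change of moderate size in either direction was not detectable at this depth.

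SPRED1 and SPRED2 had the highest levels per length of all members. SPRED2, on chromosome 2 (65537985 to 65659771, minus strand), was at 40.1, 39.6 and 43.9 CPM with EGFP and at 50.7, 49.0 and 48.2 CPM with OmoMYC. The groups did not overlap, and the rise was called but small, with a log2 fold change of 0.26 ± 0.08 (SE, FDR = 0.0147) or 1.20-fold. Leaving out EGFP 2 or any single OmoMYC library ended this call (FDR 0.0594 to 0.101), although the log2 fold change stayed between 0.21 and 0.27 over all 6 such fits. SPRED1, on chromosome 15 (38545037 to 38649450, plus strand), was at 34.5, 32.5 and 31.5 CPM with EGFP and at 34.3, 32.2 and 35.6 CPM with OmoMYC. The SPRED1 groups overlapped, with a log2 fold change of 0.05 and a narrow 95% interval of -0.12 to 0.23 (FDR = 0.597).

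**Figure D2:**
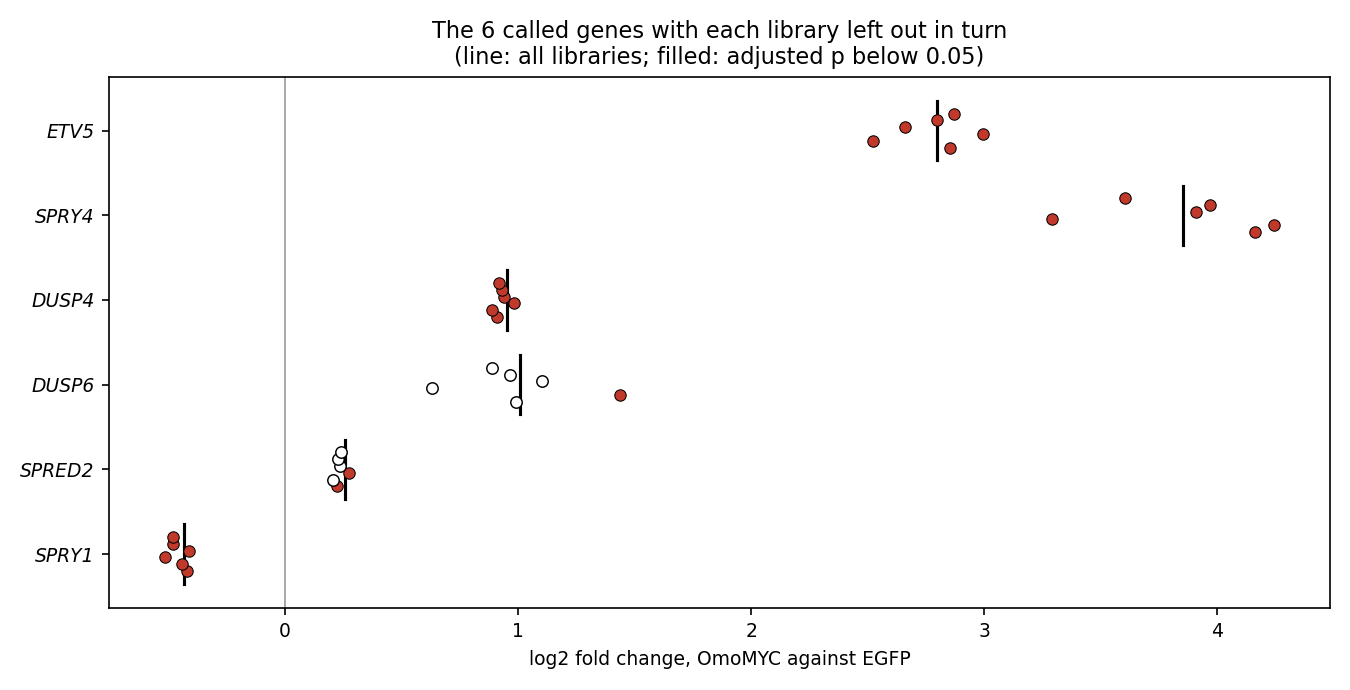
Log2 fold change of OmoMYC against EGFP (horizontal axis) for the 6 called genes, with all libraries (vertical line) and with each of the 6 libraries left out in turn (points, filled where the FDR is below 0.05). ETV5, SPRY4, DUSP4 and SPRY1 are filled throughout (the fitted values of SPRY4 rest on EGFP libraries at the detection floor), whereas DUSP6 has 5 open points, between 0.63 and 1.10, and SPRED2 has 4.

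In parental cells treated with dTAG47, none of the 9 members tested was called by edgeR (FDR 0.604 to 0.85), nor by DESeq2 or limma-voom, while 23 of 14470 genes, 0.159%, were called in all (0.117% higher and 0.0415% lower). At an unadjusted p below 0.05, 4 of the 9 passed (DUSP4, SPRY2, SPRED2 and ETV5), all of them higher with dTAG47, against 7.28% of all tested genes. The groups of DUSP4, SPRY2 and SPRED2 did not overlap, against 3.34% of the tested genes. A permutation of the 8 libraries gave an exact two-sided p of 0.0286 for each of these 3 genes, without adjustment for the 10 members tested this way. It is the smallest p that 4 against 4 allows. Groups that do not overlap always give it, so it adds nothing to their separation.

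DUSP4 was at 11.8, 11.3, 12.2 and 12.4 CPM with DMSO and at 13.0, 13.7, 13.6 and 14.2 CPM with dTAG47. Each dTAG47 library was above each DMSO library, but the difference was small, at a log2 fold change of 0.19 ± 0.06 (SE, FDR = 0.604). SPRED2 was at 43.3, 41.5, 41.2 and 42.6 CPM with DMSO and at 45.3, 46.9, 44.8 and 46.8 CPM with dTAG47, which gave a log2 fold change of 0.12 ± 0.04 (SE, FDR = 0.673). Again every dTAG47 library lay above every DMSO library. Replicates 1 and 2 stood apart from replicates 3 and 4 with DMSO, where the chi-square per degree of freedom over all genes was 2.68 and 3.22 within these pairs and 9.03 to 11.7 between them. With dTAG47 the split was not as clear: the value was 2.7 for libraries 3 and 4, but 8.48 for the first pair, above the 5.87 found when library 1 was set against library 3. With a factor for this split, DUSP4 (FDR = 0.0357) and SPRED2 (FDR = 0.0356) were called higher with dTAG47, at log2 fold changes of 0.19 and 0.12. That fit called 794 of the 14470 genes, or 5.49%, and within either pair of replicates alone no member was called.

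SPRY2 was at 1.90, 2.10, 1.73 and 2.17 CPM with DMSO and at 2.56, 2.23, 2.55 and 2.34 CPM with dTAG47. The groups were separate by a small gap, and the log2 fold change was 0.28 (95% interval 0.03 to 0.53, FDR = 0.673). ETV5 had only 8, 22, 11 and 16 counts with DMSO and 18, 37, 25 and 27 with dTAG47. Its groups overlapped through the second DMSO and the first dTAG47 library, and its log2 fold change of 0.81 (95% interval 0.19 to 1.42) was not called (FDR = 0.673, exact permutation p = 0.0571). The ETV5 change in parental cells was smaller than the one with OmoMYC, but the experiments were counted separately and the difference between them was not tested.

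The remaining members were not called in parental cells either, and the least abundant of them were measured with little precision. SPRY1 was at 9.33, 8.86, 9.22 and 9.02 CPM with DMSO and at 8.51, 9.78, 8.42 and 8.58 CPM with dTAG47, with a 95% interval of the log2 fold change from -0.19 to 0.10. SPRED1 ranged from 26.9 to 31.2 CPM with DMSO and from 23.9 to 30.6 CPM with dTAG47 (log2 fold change -0.10), and ETV4 from 1.21 to 1.53 and from 1.18 to 1.87 CPM (0.13). DUSP5 ranged from 0.346 to 0.621 CPM with DMSO and from 0.538 to 0.659 CPM with dTAG47 (log2 fold change 0.33, 95% interval -0.16 to 0.82), and DUSP6 from 0.504 to 0.574 and from 0.348 to 0.520 CPM (-0.20, 95% interval -0.66 to 0.27). The groups of these 5 genes overlapped, and their FDR lay between 0.711 and 0.85. SPRY4 had 3, 4, 6 and 4 counts with DMSO and 1, 8, 3 and 4 with dTAG47, too few to pass the filter, so it was not tested.

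**Figure D3:**
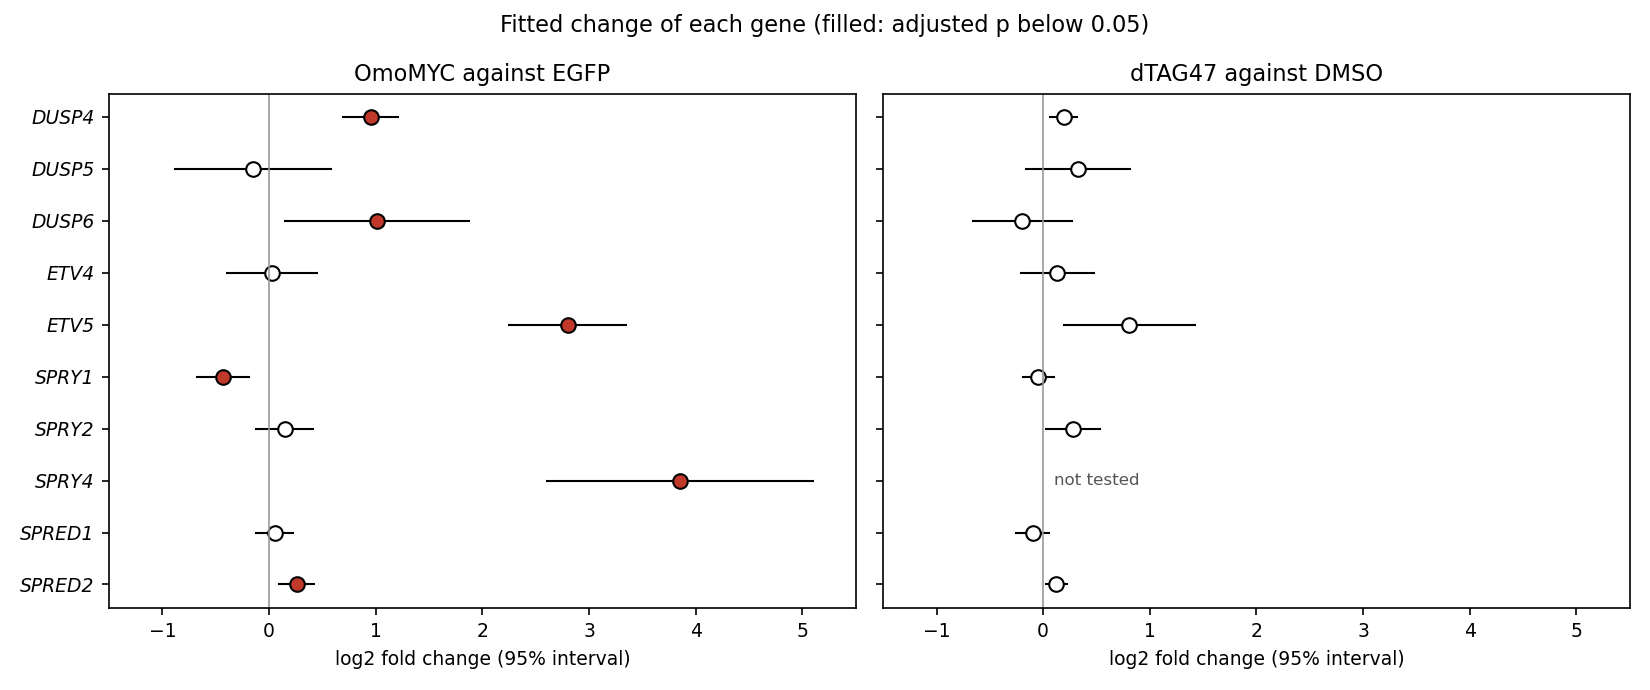
Log2 fold change of each member (horizontal axis, with bars for the 95% interval) for OmoMYC against EGFP on the left and dTAG47 against DMSO on the right, filled where the FDR is below 0.05. On the left 6 genes are filled, from SPRY1 at -0.44 to SPRY4, whose fitted value rests on EGFP libraries at the detection floor; on the right none is filled and SPRY4 was not tested.

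Levels of different genes were compared per length, as RPKM over the annotated exons of each gene. SPRED2 was highest in all 4 groups, at 7.36 to 8.66 RPKM, followed by SPRED1 at 3.56 to 4.24 RPKM. In DMSO cells the order continued with SPRY1 at 2.38 ± 0.06 RPKM (SD, n = 4), DUSP4 at 1.70 ± 0.08, SPRY2 at 0.636 ± 0.063, ETV4 at 0.420 ± 0.044, DUSP5 at 0.188 ± 0.050, DUSP6 at 0.144 ± 0.008, ETV5 at 0.0546 ± 0.0218 and SPRY4 at 0.0148 ± 0.0058. Of neighbours in this order, only DUSP5 and DUSP6 had libraries that overlapped. SPRED2 was the only member above the median of the tested genes (4.43 RPKM with DMSO and 4.81 with EGFP), so that 9 of the 10 feedback genes were in the lower part of the range in both control groups.

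With OmoMYC the order changed in its middle and lower part. ETV5, at 0.714 ± 0.124 RPKM (SD, n = 3), was above ETV4 at 0.369 ± 0.032, whereas with EGFP ETV5 at 0.103 ± 0.038 was below ETV4 at 0.371 ± 0.034, and the libraries of the genes did not overlap in either group. SPRY2 at 1.34 ± 0.05 RPKM was above SPRY1 at 1.23 ± 0.04 with OmoMYC, and below it with EGFP (1.24 ± 0.05 against 1.69 ± 0.10), again without overlap. DUSP6, DUSP5 and SPRY4 lay at 0.160, 0.133 and 0.105 RPKM with OmoMYC, and the libraries of neighbouring genes among these 3 overlapped. With EGFP, those of DUSP5, ETV5 and DUSP6 did.

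The control groups differed from each other as well. DUSP4 was 3.39-fold higher with DMSO than with EGFP (1.70 against 0.502 RPKM), above its level with OmoMYC at 0.954 RPKM, while SPRY2 was 1.94-fold higher with EGFP than with DMSO. EGFP and DMSO cells differ in the engineered construct, serum, doxycycline, time of treatment and sequencing experiment, which cannot be told apart, and these ratios carry no test.

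**Figure D4:**
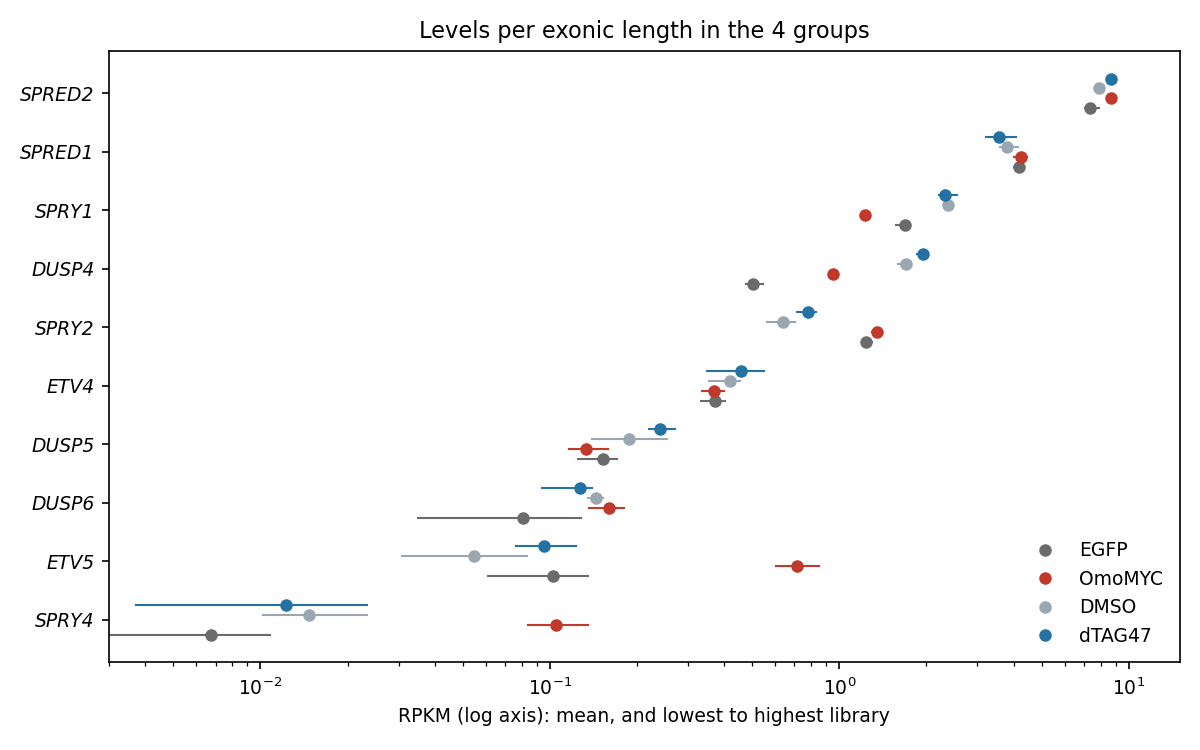
Level of each gene in RPKM (horizontal log axis) in the 4 groups: points are means and bars run from the lowest to the highest library (n = 3 for EGFP and OmoMYC, n = 4 for DMSO and dTAG47). SPRED2 lies at the top near 8 RPKM in every group and SPRY4 at the bottom, where the bar of its EGFP libraries, the lowest of which is at 0, is cut by the axis; ETV5 with OmoMYC stands apart from its other groups.

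The rest of the pathway was examined in 6 lists of 98 genes in all, of which 95 were counted and 91 tested with OmoMYC. Of these, 57 were called, 38 higher and 19 lower, or 62.6% against 53% of every gene tested, and their median log2 fold change was 0.14. Here too the share was not far from that of all genes, and genes of every list but 1 were called in both directions.

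At the cell surface, 6 of 22 growth factor receptors were called higher and 7 lower. NGFR, the low-affinity receptor of nerve growth factor, rose from 18.2 to 23.6 CPM with EGFP to 425 to 481 CPM with OmoMYC, a log2 fold change of 4.44 ± 0.10 (SE, FDR = 4.25e-10). Smaller rises were seen for LTK (log2 fold change 1.44) and ERBB2 (0.92), both receptor tyrosine kinases. PDGFRA (-1.38), KIT (-1.16) and FGFR2 (-1.04), receptors of platelet-derived growth factor, stem cell factor and fibroblast growth factors, were called lower.

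Between receptor and ERK, 9 of 19 adaptors, RAS proteins and exchange factors were called higher and 4 lower. The adaptors SHC2 (log2 fold change 1.75), SHC3 (1.46) and FRS3 (1.12) rose most, while the RAS gene NRAS (-0.45) and the exchange factor RASGRP1 (-0.39) fell. Among RAF, MEK, ERK and their kinase targets, 9 of 16 were called higher and 3 lower. The ERK-activated kinase genes RPS6KA1 (log2 fold change 0.98), MKNK1 (0.58) and RPS6KA2 (0.41) rose, and RPS6KA3 (-0.37), the MEK gene MAP2K1 (-0.25) and the scaffold IQGAP1 (-0.18) fell.

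Other inhibitors of the pathway were called higher in 6 cases and lower in 2 of 17. SPRED3, the third SPRED gene, went from 0.915 to 1.07 CPM with EGFP to 3.76 to 5.10 CPM with OmoMYC, a log2 fold change of 2.11 ± 0.19 (SE, FDR = 1.16e-05). Its fold change was larger than those of SPRED1 and SPRED2. LZTR1 (log2 fold change 0.60), which directs RAS proteins to degradation, and the RAS GTPase-activating gene RASAL2 (0.39) rose, whereas RASA2 (-0.77) and RASA1 (-0.30), of the same function, fell.

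Of 6 genes listed here as phosphatases of JNK and p38 kinases, some of which also act on ERK, 5 were called higher and none lower. Their median log2 fold change was 0.68. DUSP8 rose from 12.5 to 20.7 CPM with EGFP to 63.6 to 82.5 CPM with OmoMYC (log2 fold change 2.08 ± 0.16, SE, FDR = 4.81e-06). DUSP10 (1.01) and DUSP16 (0.78) rose less. The list is short, and higher calls made up 27.3% of all tested genes.

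The other genes known to be induced by ERK split evenly, with 3 of 11 called higher and 3 lower. ETV1, the third gene of the subfamily of ETV4 and ETV5, rose from 6.51 to 7.52 CPM with EGFP to 19.9 to 25.7 CPM with OmoMYC, a log2 fold change of 1.74 ± 0.12 (SE, FDR = 1.66e-06). The immediate early transcription factor EGR1 (1.30) and the secreted neuropeptide precursor VGF (0.51) also rose. PHLDA1 (-1.13) and the ephrin receptor EPHA2 (-0.84) fell, as did the low-count gene IER3. In parental cells, none of the 94 list genes tested was called with dTAG47 by edgeR, and 13 had an unadjusted p below 0.05, against 7.28% of all genes. With the factor for replicates 1 and 2 against 3 and 4, 6 list genes were called, where 5.49% of all genes were.

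**Figure D5:**
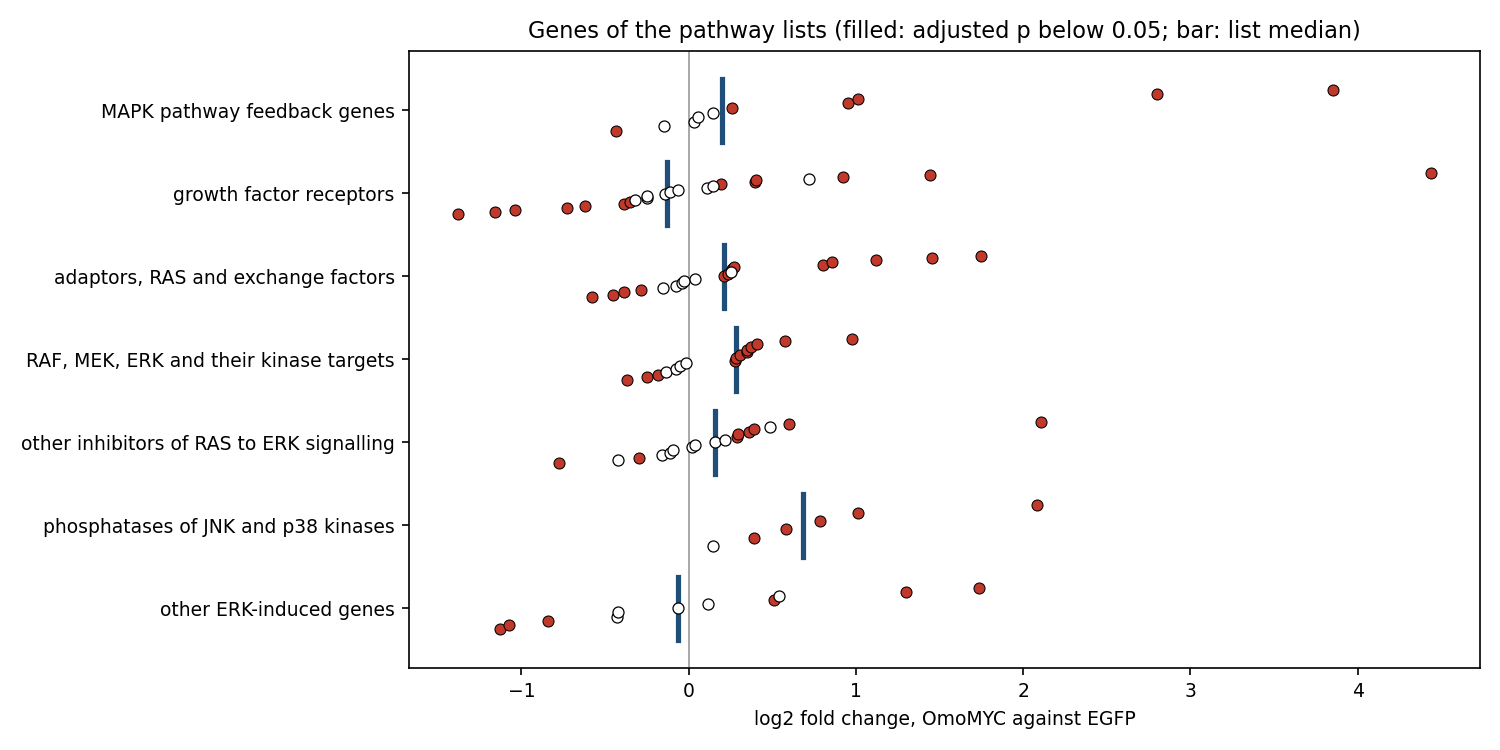
Log2 fold change of OmoMYC against EGFP (horizontal axis) for each tested gene of the feedback group and of the 6 pathway lists, filled where the FDR is below 0.05, with a bar at the list median. Medians run from -0.13 for the receptors to 0.68 for the phosphatases of JNK and p38 kinases, and filled points lie on both sides of 0 in every list except those phosphatases.

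Markers of cell type were called about as often as other genes, at 60% and 55.6% of the lists below against 53% of all tested genes. Of 10 neuroblastoma markers, 5 were called higher and 1 lower with OmoMYC, and their summed level was 1478 to 1701 CPM with EGFP and 1705 to 1779 CPM with OmoMYC. Of 9 tested mesenchymal or stromal markers, 2 were called higher and 3 lower, and their summed level, most of it TWIST1, was 383 to 394 CPM with EGFP and 301 to 325 CPM with OmoMYC. Of the collagen genes of fibroblasts, COL1A1 averaged 21.2 CPM with EGFP and 31.5 with OmoMYC (called higher), COL1A2 15.7 and 7.78 CPM (called lower), and COL3A1 0.333 and 0.342 CPM. The part of these differences in the changes of the feedback genes was not tested.

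Genes with the most similar pattern to DUSP6 and ETV5 were sought over the 14 libraries, by the root mean square difference in log2 CPM after centring each experiment, among 11968 genes. For DUSP6 these were LUZP2 (0.226), SCN2A (0.233) and CPEB4 (0.247), beside a median difference of 0.479 over all genes. For ETV5, C12orf68 (0.392) and SYT5 (0.405) were among them, beside a median of 1.01. The named genes were picked as the closest, so differences below the median were fixed by that choice. DUSP6 itself had only 4 to 28 counts per library. SCN2A encodes a sodium channel of neurons and SYT5 a synaptotagmin.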

How the data were processed

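The deposited values are counts, whole numbers per gene that the authors made by trimming, aligning reads to hg19 with STAR and counting with FeatureCounts, without normalization, from ribosome-depleted total RNA of biological replicates. Annotation, strand setting and handling of reads shared between genes are not given in the sources used here. Each of the 14 columns maps to 1 library.

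Each table was fitted whole and separately in edgeR 4.0.16 (R 4.3.3): filterByExpr defaults, TMM scaling, the robust quasi-likelihood test and Benjamini-Hochberg adjustment at 0.05. The study's methods name DESeq2 (1.42.0 here), which was run as an alternative, as was limma-voom (limma 3.58.1). Intervals are at 95% from the t distribution of the fit. Exact tests permute library labels, two-sided. A group with at most 3 counts in every library was taken as at the floor. Exonic lengths and positions come from GENCODE lifted to GRCh37, the build of hg19. The fits were also run on simulated counts with known changes. Those counts were simpler than the real libraries, with few changed genes and no pairs of replicates. They do not show how accurate the fits are on these data.

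The members, lists and tests were chosen with earlier results of these data known. Named genes were all members, up to 3 called genes rising and 3 falling most per list with a mean of at least 1 CPM in OmoMYC or EGFP cells, every list gene called with dTAG47, and the 3 most like DUSP6 and ETV5; some genes that this rule names are not reported here. Alternatives were other scalings and filters, other tools, a replicate block, a factor for replicates 1 and 2 against 3 and 4, and leaving out each library. Fits on replicates 1 and 2 or 3 and 4 alone were chosen after seeing the data.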

Additional observations from a re-analysis of the deposited data

Results flagged for a closer look

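Each of the 10 members was checked in the DMSO and in the dTAG47 group, which made 20 sets of 4 values. The sets share the same 8 libraries and are not independent. In 2 sets, the lowest or highest value lay farther from the others than the 95% critical value of Dixon's test allows. Chance alone flags about 1 set in 20. DUSP6 in the library dTAG47 4 was at 0.348 CPM, below the 0.498 to 0.520 CPM of the other dTAG47 libraries (ratio of gap to range 0.872). Without that library, the log2 fold change of DUSP6 with dTAG47 was -0.07, against -0.20 with all libraries. SPRY1 in the library dTAG47 2 was at 9.78 CPM, above the 8.42 to 8.58 CPM of the others (ratio 0.886). Without it, the log2 fold change of SPRY1 was -0.10, against -0.04. Neither gene was called with dTAG47 in any of these fits.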

How the results depend on the processing

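With OmoMYC, ETV5, SPRY4, DUSP4 and SPRY1 were called under every alternative that tested them, and requiring 10 counts in every library left DUSP5, DUSP6 and SPRY4 untested. The number of members called was 4 to 6, and 4 to 5 with a library left out. That of list genes was 55 to 63, and 42 to 61 with a library left out. Of all tested genes, 41% (without OmoMYC 3) to 58.9% (without EGFP 3) were called with a library left out. Over the other alternatives, 42.2% (no filter) to 58.7% (replicate block) of all tested genes were called. DUSP6 lost its call with RLE factors (FDR = 0.0525), upper quartile factors (FDR = 0.0547) and no filter (FDR = 0.0551) besides the cases given above. Over fits with a library left out, the log2 fold change ran from -0.070 to 0.087 for ETV4, with -0.06 without EGFP 1 and -0.0019 without OmoMYC 3, and from -0.012 to 0.073 for SPRED1, with -0.0082 without EGFP 3. On replicates 1 and 2 of the parental experiment alone, that of SPRY1 was 0.023, against -0.04 over all replicates.

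With dTAG47, 0 members were called with any library left out, 2 with the factor for replicates 1 and 2 against 3 and 4 and 2 with the replicate block. Of the list genes, 0 were called with any library left out, 6 with the factor, 5 with the block and 5 on replicates 3 and 4 alone, where 5.49%, 4.62% and 6.17% of all genes were called. The correlation of deviations of same-numbered libraries was 0.076, -0.0697 and 0.293 with OmoMYC and EGFP and 0.0093, 0.109, 0.101 and 0.159 in parental cells. For differently numbered libraries it ran from -0.291 to 0.252 and from -0.226 to 0.247. Whether the numbers pair the samples was not tested. Under the block, DUSP4 (0.19, FDR = 0.0479) and SPRED2 (0.13, FDR = 0.0431) were called with dTAG47. With OmoMYC, the block called 6 members and 63 list genes, where 58.7% of all tested genes were called. Depth limits DUSP5, DUSP6, SPRY4 and ETV5 most, with at most 37 counts in every library apart from ETV5 with OmoMYC. The causes of these shifts were not tested.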
